A study of Homo sapiens with 6 samples.

Results

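The mRNAs of 44 genes for Sm, LSm and other core proteins of small nuclear ribonucleoproteins (snRNPs) were followed in RNA recovered with the FERRY complex or with the affinity tag alone. The members were chosen by gene symbol, from a list of Sm, LSm, SF3 and U snRNP protein genes, among 60676 genes in the deposited count table. Earlier results of these data were known when they were chosen. FERRY works downstream of RAB5, a GTPase of early endosomes, and is made of TBCK, PPP1R21, C12orf4, CRYZL1 and GATD1. The GST-Ferry complex was the bait of 3 pulldowns and GST by itself the bait of 3 others, all from lysate of HEK 293, an established human embryonic kidney line grown in suspension. All 6 pulldowns shared the same untreated line, the bait protein was loaded on glutathione resin before lysate was added, and ribosomal RNA was removed before strand-specific libraries were made. No library of the input lysate was analysed here, so the amount of an mRNA in the lysate and its retention on a bait cannot be told apart. The table heads its columns as control and sample with a number, and these were read as GST and GST-Ferry from the words alone.

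Introns are removed from precursor mRNA by the spliceosome, whose building blocks are the U snRNPs. Each snRNP holds a short RNA inside a ring of small related proteins, which are the Sm proteins for U1, U2, U4 and U5 and the LSm proteins for U6, and each carries further proteins of its own. The proteins are translated in the cytoplasm from ordinary mRNAs, and the Sm ring is also loaded onto the RNA there before the particle returns to the nucleus. A second LSm ring, with LSM1 in place of LSM8, works in the cytoplasm in mRNA decay.

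Sequences bear on 3 members in particular. SF3B5, the smallest subunit of the SF3b complex, is the member that passed the test. Its gene has 1 exon, at chr6:144094881-144095573 on the minus strand of GRCh38 in GENCODE 29, and its coding sequence of 261 bases (chr6:144095237-144095497) is shown because SF3B5 is the member called, with the start and stop codons in capitals.
SF3B5: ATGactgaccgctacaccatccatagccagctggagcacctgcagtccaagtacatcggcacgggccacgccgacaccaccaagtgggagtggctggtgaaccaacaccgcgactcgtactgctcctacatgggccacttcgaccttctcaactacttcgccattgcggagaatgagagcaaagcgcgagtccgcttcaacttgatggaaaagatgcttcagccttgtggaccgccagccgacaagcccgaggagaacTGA
SNRPN, a paralog of the Sm protein gene SNRPB known for its expression in neurons and from the paternal allele, was listed at 0 in every library. The coding stretches below, bases 4 to 93 of each coding sequence, show how far reads of the pair can be told apart, with the 13 bases that differ in capitals (SNRPB at chr20:2467669-2467758 on the minus strand, SNRPN at chr15:24975358-24975447 on the plus strand).
SNRPB: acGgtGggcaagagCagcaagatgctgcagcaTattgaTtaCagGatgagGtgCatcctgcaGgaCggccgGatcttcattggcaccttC
SNRPN: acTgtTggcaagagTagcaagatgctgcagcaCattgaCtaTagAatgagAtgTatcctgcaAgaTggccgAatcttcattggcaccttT
Over the 696 aligned coding bases the SNRPB and SNRPN sequences were identical at 81.8%, and their longest identical run was 32 bases. U2AF1, the small subunit of the U2 auxiliary factor that reads the end of the intron, has a copy on the same chromosome that the annotation calls U2AF1L5. Bases 250 to 339 of both coding sequences are shown because they could not be told apart at any position (U2AF1 at chr21:43095447-43095536 and U2AF1L5 at chr21:6487116-6487205, both on the minus strand).
U2AF1: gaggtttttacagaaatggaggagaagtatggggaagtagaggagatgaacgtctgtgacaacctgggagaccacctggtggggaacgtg
U2AF1L5: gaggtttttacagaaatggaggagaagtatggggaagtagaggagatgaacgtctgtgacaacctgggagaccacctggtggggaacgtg
All 723 coding bases of U2AF1 and U2AF1L5 were identical.

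The GST-Ferry libraries held 6532665, 2671831 and 2454538 counts, and the GST libraries held 9388865, 10466520 and 7390346 counts. The members took 0.659%, 0.742% and 0.736% of the counts with GST-Ferry, against 0.637%, 0.661% and 0.545% with GST. In the bait check GATD1 and CRYZL1 were not called, and 1 of them had a log2 fold change of -0.50 (edgeR unadjusted p under 0.05). The check showed 3 subunit mRNAs called higher with GST-Ferry, TBCK, PPP1R21 and C12orf4. GST-Ferry 1 was far below the other GST-Ferry libraries there, with PPP1R21 at 798, 18290 and 37618 CPM in GST-Ferry 1, 2 and 3, against 39.4, 44.6 and 40.8 CPM in GST 1, 2 and 3. TBCK had 617, 4023 and 7155 CPM and C12orf4 had 795, 6441 and 12085 CPM in GST-Ferry 1, 2 and 3. HEK 293 markers (VIM, KRT8, KRT18, NEFM, NEFL and INA) were present in all libraries, at a summed 1378 to 2086 CPM with GST-Ferry and 875 to 1063 CPM with GST, while markers of other cell types summed to 7.56 to 10.4 CPM, with CD3E and HBB at 0. KRT18 was the marker called higher, and the part of the marker difference in the results was not tested. Libraries stood apart within both groups. On the first principal component over all tested genes, with 42.9% of the variance, GST 3 lay at -56.4 while GST 1 and GST 2 lay at -13.2 and -15.1, and GST-Ferry 1 lay at 4.43 against 36.7 and 43.6 for GST-Ferry 2 and GST-Ferry 3. Calls of members are therefore also given, group by group, without GST 3 and GST-Ferry 1. Both libraries were picked from this component of the same data, which also separated the baits. GST-Ferry 1 was the GST-Ferry library nearest to GST on it. Calls in that setting are therefore a description and not separate support.

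The difference between the baits was small for most snRNP protein mRNAs and mostly towards GST-Ferry. Levels are normalised read counts in CPM, the counts scaled to a common library size, and differences are log2 fold changes of GST-Ferry over GST from edgeR's quasi-likelihood test across all genes, with Benjamini-Hochberg adjustment. Of the 44 members, 43 passed the filter on low counts, and among these 1 was called higher at an adjusted p under 0.05 and 0 were called lower. That is 2.33% of the tested members, against a background of 0.592% called higher and 0.0322% called lower among 15546 genes. At an unadjusted p under 0.05, 10 members were higher and 0 lower, against 11.3% and 8.05% of all tested genes, and DESeq2 called 4 members higher and 0 lower, against 3.43% and 1.14% of all tested genes. A fold change above 0 was found for 30 of the 43 (69.8%), against 47.8% of all tested genes, and the median log2 fold change was 0.28 for the members and -0.03 for all tested genes. For 9 members (20.9%) all GST-Ferry libraries lay above all GST libraries, against 14.9% of all genes, and for 0 members did they lie below, against 12.2% of all genes. Because the members were chosen with earlier results of these data known, these comparisons with all genes are descriptions and not tests. Without GST 3 and GST-Ferry 1 together the test called 18 members higher and 0 lower, against 11.5% and 6.51% of all genes tested. Without GST 3 alone it called 7 members higher and 0 lower, against 4.45% and 3.54% of all genes tested. Without any 1 of the other 5 libraries it called 0 members.

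**Figure D1:**
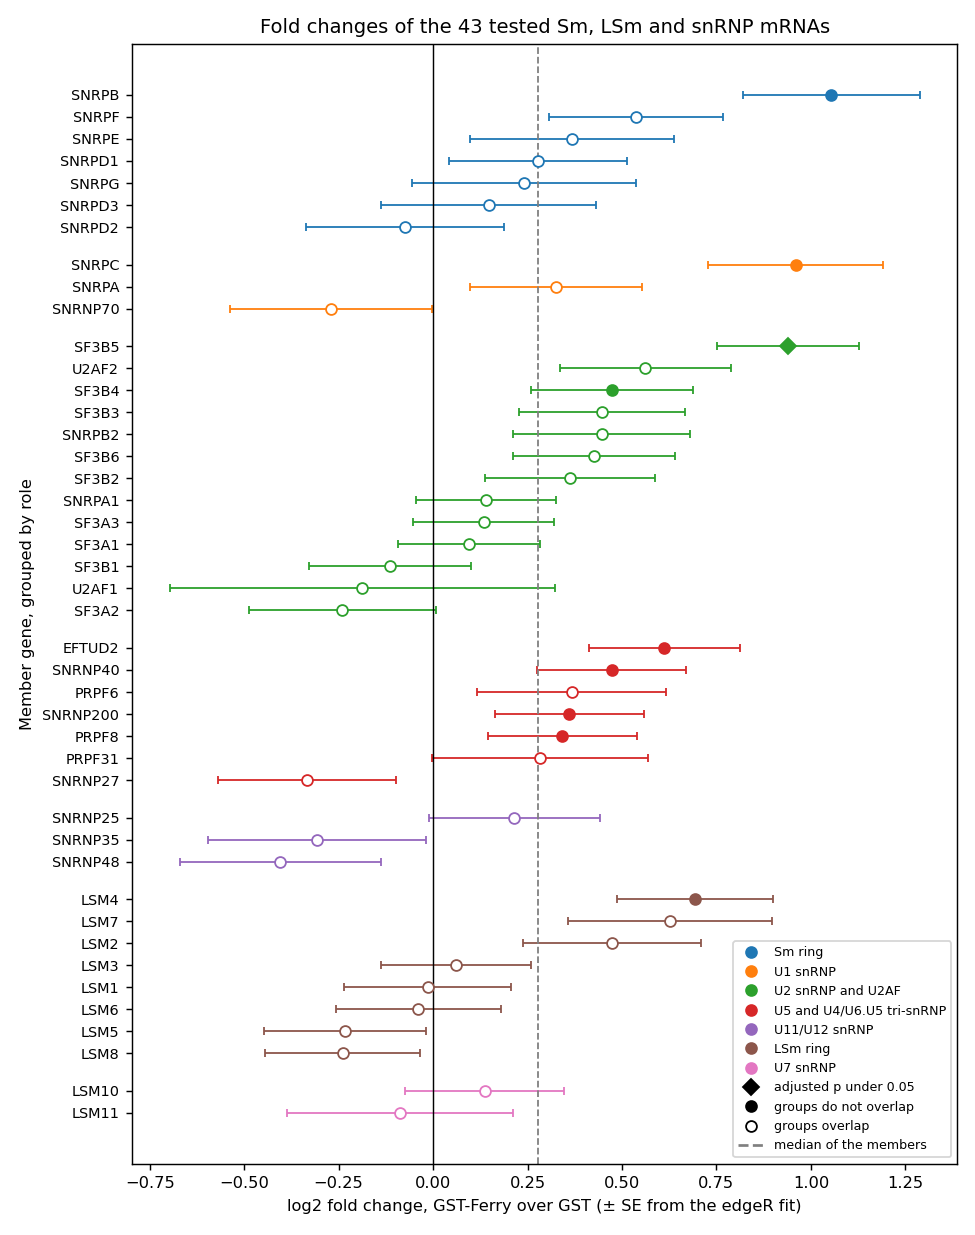
The log2 fold change of GST-Ferry over GST (x axis, with SE from the edgeR fit) is plotted for the 43 tested members, grouped by role on the y axis. SNRPB at 1.05, SNRPC at 0.96 and SF3B5 at 0.94 stand at the right end, SF3B5 is the only one with an adjusted p under 0.05, and SNRNP48 at -0.40 is the lowest.

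Among the U2 snRNP proteins and U2AF, which recognise the branch point and the end of the intron, SF3B5 rose with GST-Ferry. SF3B5 had 89.1, 97.5 and 98.7 CPM in GST-Ferry 1, 2 and 3, against 45.5, 54.9 and 48.0 CPM in GST 1, 2 and 3. Both groups were tight and did not overlap. The means were 95.1 ± 5.23 CPM with GST-Ferry and 49.5 ± 4.89 CPM with GST (SD, n = 3 each), a 1.92-fold difference and a log2 fold change of 0.94 ± 0.19 (SE), at an edgeR adjusted p of 0.0477. SF3B5 was 1 of 9 tested members with an annotated transcript of at most 1000 bases, at 693 bases, and its GC content was 56.6%. The size of the SF3B5 difference moved little, between 0.82 and 1.00 on the log2 scale over 17 other settings and library subsets. These include a threshold of 0.01, which uses the same fit and could not change the size. The call lay at the threshold of 0.05 and 10 of these settings lost it, with adjusted p-values up to 0.425 (edgeR). It was lost without any 1 library other than GST 3 (edgeR adjusted p = 0.0656 without GST-Ferry 1, 0.425 without GST-Ferry 2, 0.411 without GST-Ferry 3, 0.0723 without GST 1 and 0.110 without GST 2), and without GST 3 it was 0.00741.

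The other SF3b subunits among the members all lay below SF3B5, and 4 of them lay close together. SF3B4 had a log2 fold change of 0.47 ± 0.21, SF3B3 of 0.45 ± 0.22, SF3B6 of 0.43 ± 0.21 and SF3B2 of 0.36 ± 0.22, and the scaffold SF3B1, which cradles the branch point, had -0.12 ± 0.21. None of these passed the test (edgeR adjusted p = 0.247 to 0.801). Without GST 3 and GST-Ferry 1 together, 5 U2 and U2AF members were called higher, namely SF3B5, SF3B3, SF3B6, SNRPB2 and U2AF2. In that setting 11.5% of all genes tested were called higher. SF3B3 had the highest mean CPM over both baits among the U2 and U2AF mRNAs, without correction for transcript length. Per kilobase of annotated transcript it had 61.8 CPM with GST-Ferry and 45.3 with GST, below U2AF2 at 144 and 97.1. By library, SF3B3 had 476, 719 and 608 CPM in GST-Ferry 1, 2 and 3, against 384, 410 and 526 CPM in GST 1, 2 and 3. GST 3 lay above GST-Ferry 1, so the SF3B3 groups overlapped. SF3B1 had 390, 460 and 445 CPM with GST-Ferry, against 396, 409 and 598 CPM with GST, where GST 3 stood out as the highest library.

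Within SF3a, which joins SF3b in the mature U2 particle, none of the 3 subunits passed the test. SF3A2 had 88.4, 95.1 and 90.9 CPM in GST-Ferry 1, 2 and 3, against 114, 141 and 68.4 CPM in GST 1, 2 and 3. The GST-Ferry values of SF3A2 lay inside the range of the GST values, with GST 3 lowest of all (log2 fold change -0.24 ± 0.25, edgeR adjusted p = 0.619). The log2 fold change of SF3A2 was -0.02 ± 0.26 without GST 2 and -0.51 ± 0.16 without GST 3 (edgeR adjusted p = 0.0563). SF3A1 and SF3A3 had log2 fold changes of 0.10 ± 0.19 and 0.13 ± 0.19. The U2 stem-loop binding proteins SNRPB2 and SNRPA1 had 0.45 ± 0.23 and 0.14 ± 0.19, and the large U2 auxiliary subunit U2AF2, which binds the polypyrimidine tract, had 0.56 ± 0.23 (edgeR adjusted p = 0.205).

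U2AF1 could not be judged. It was listed with 10, 2 and 6 counts in GST-Ferry 1, 2 and 3, and with 18, 15 and 16 counts in GST 1, 2 and 3. Its copy U2AF1L5 was listed with 28, 12 and 7 counts in the GST-Ferry libraries and 38, 39 and 31 counts in the GST libraries. With identical coding sequences, as printed above, the split of reads between these loci is uncertain.

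SNRPB, which encodes the Sm ring proteins B and B', had the largest difference of all members, although it did not pass the test. SNRPB had 201, 269 and 265 CPM in GST-Ferry 1, 2 and 3, against 103, 93.5 and 158 CPM in GST 1, 2 and 3. The groups did not overlap, with GST 3 nearest to GST-Ferry 1. The fold was 2.08, the log2 fold change 1.05 ± 0.23 and the edgeR adjusted p 0.0593. The direction held in all 17 other settings, with log2 fold changes of 0.76 to 1.44, and 5 of them called SNRPB higher, among them DESeq2 (adjusted p = 0.00316) and the fit without GST 3 (adjusted p = 0.00317).

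The remaining Sm proteins, which complete the same 7-membered ring, differed less. SNRPF had a log2 fold change of 0.54 ± 0.23, SNRPE of 0.37 ± 0.27, SNRPD1 of 0.28 ± 0.24, SNRPG of 0.24 ± 0.30 and SNRPD3 of 0.15 ± 0.28, and none passed the test (edgeR adjusted p = 0.228 to 0.808). Without GST 3 and GST-Ferry 1 together, against 11.5% of all genes tested, 6 Sm ring members were called higher, SNRPB and these 5. SNRPD2, the most abundant Sm ring mRNA and not among those 6, had 235, 349 and 326 CPM in GST-Ferry 1, 2 and 3. It had 199, 371 and 387 CPM in GST 1, 2 and 3. The SNRPD2 values were spread over the same range in both groups (log2 fold change -0.07 ± 0.26, edgeR adjusted p = 0.901), and its sign changed when GST 2, GST 3 or GST-Ferry 1 was left out. Proteins of 1 ring are needed in equal number, yet their mRNAs differed in level per kilobase of annotated transcript. SNRPD2 had 336 ± 66.9 CPM per kilobase with GST-Ferry and 354 ± 116 with GST, SNRPB had 212 ± 33.2 and 102 ± 30.0, and SNRPD3 had 25.2 ± 4.02 and 22.7 ± 10.1 (mean ± SD, n = 3 each). These levels depend on the transcript taken, such as one of 4909 bases for SNRPD1.

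SNRPN was the member that failed the filter, with 0 counts in all 6 libraries. A count of 0 allows up to 3 counts, or between 0.459 and 1.22 CPM in the GST-Ferry libraries and between 0.287 and 0.406 CPM in the GST libraries. SNURF, on the same strand within the SNRPN span, was also listed at 0 in all 6, as was another coding gene of that locus. The counting rule for overlapping genes is not known here, and the 0 does not show whether SNRPN mRNA was present.

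U1 snRNP proteins, which recognise the start of the intron, differed among themselves. SNRPC, a zinc finger protein, had 92.6, 140 and 155 CPM in GST-Ferry 1, 2 and 3, against 53.9, 71.7 and 73.1 CPM in GST 1, 2 and 3. The SNRPC groups did not overlap, and GST-Ferry 1 was the lowest of its group (fold 1.94, log2 fold change 0.96 ± 0.23, edgeR adjusted p = 0.0712). SNRPC was called higher in 6 of 17 other settings, by DESeq2 with an adjusted p of 0.00898 and without GST 3 with 0.0135. SNRNP70, the most abundant of the U1 mRNAs, had 317, 310 and 399 CPM in GST-Ferry 1, 2 and 3, against 425, 563 and 249 CPM in GST 1, 2 and 3. Every GST-Ferry library lay below GST 1 and GST 2 and above GST 3 (log2 fold change -0.27 ± 0.27, edgeR adjusted p = 0.604). The log2 fold change of SNRNP70 was -0.0013 ± 0.27 without GST 2 and -0.56 ± 0.19 without GST 3 (edgeR adjusted p = 0.0768). SNRPC was the U1 member called without GST 3 and GST-Ferry 1 together, where 11.5% of all genes tested were called higher. SNRPA, which binds a U1 stem-loop, followed the same order among the GST libraries, with 111, 140 and 141 CPM in GST-Ferry 1, 2 and 3 and 108, 129 and 74.5 CPM in GST 1, 2 and 3.

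**Figure D2:**
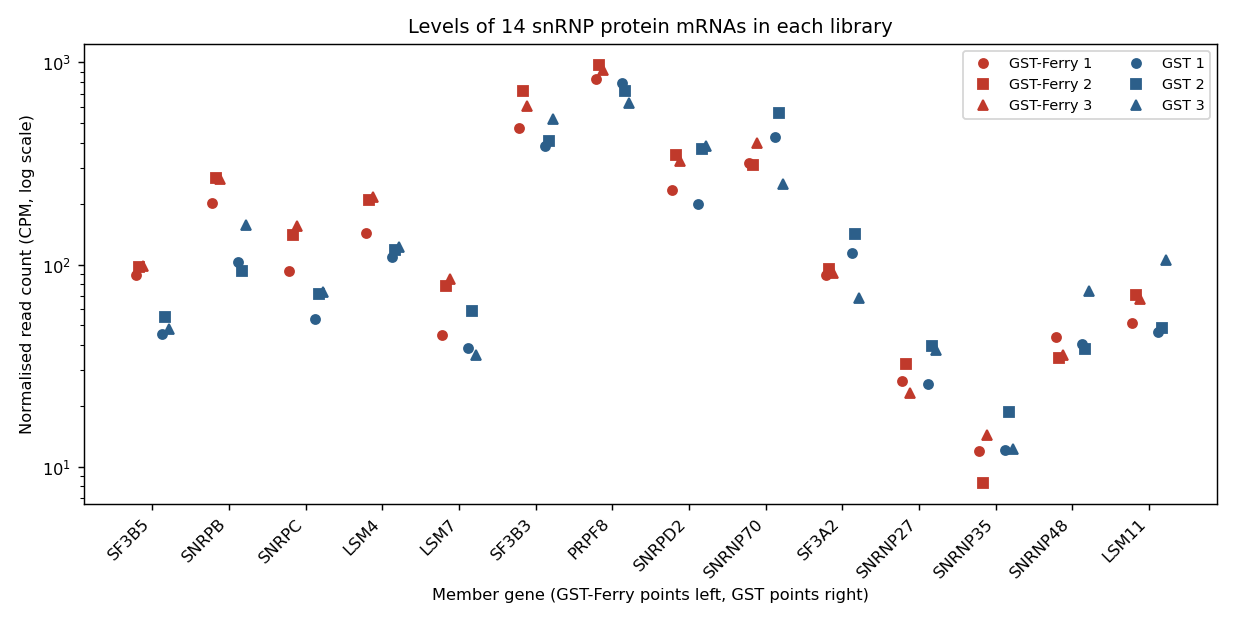
Normalised read counts (CPM, log scale on the y axis) are plotted for 14 members, with GST-Ferry libraries in red on the left and GST libraries in blue on the right of each gene. SF3B5, SNRPB, SNRPC, LSM4 and PRPF8 have separate groups, while SNRNP70, SF3A2, SNRNP48 and LSM11 have GST 3 at an end of the range.

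Proteins of the U5 snRNP and the U4/U6.U5 tri-snRNP form the part of the spliceosome that is rearranged for catalysis. For 4 of the 7 members every GST-Ferry library lay above every GST library, which held for 14.9% of all tested genes, and none of the 7 passed the test. EFTUD2 and SNRNP40 were called higher without GST 3 and GST-Ferry 1 together, as were 11.5% of all genes tested. PRPF8, the scaffold of the active site, had 827, 972 and 920 CPM in GST-Ferry 1, 2 and 3, against 794, 720 and 630 CPM in GST 1, 2 and 3. The gap between GST-Ferry 1 and GST 1 was small (log2 fold change 0.34 ± 0.20, edgeR adjusted p = 0.363). SNRNP200, the helicase that unwinds U4 from U6, had nearly the same values, with 780, 946 and 918 CPM with GST-Ferry and 755, 690 and 614 CPM with GST. EFTUD2, the GTPase of U5, had the largest log2 fold change of the 7 at 0.61 ± 0.20, with 305, 428 and 408 CPM in GST-Ferry 1, 2 and 3 and 256, 259 and 231 CPM in GST 1, 2 and 3 (edgeR adjusted p = 0.137). The WD40 protein SNRNP40 had 0.47 ± 0.20, and the tri-snRNP proteins PRPF6 and PRPF31 had 0.37 ± 0.25 and 0.28 ± 0.29. SNRNP27 had 26.5, 32.2 and 23.0 CPM with GST-Ferry, against 25.8, 39.5 and 37.9 CPM with GST, and was the only one of the 7 with a log2 fold change below 0 (-0.33 ± 0.24).

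The U11/U12 proteins, which belong to the minor spliceosome that removes a rare class of introns, lay mostly below 0 (median log2 fold change -0.31). SNRNP48 had 43.9, 34.6 and 35.7 CPM in GST-Ferry 1, 2 and 3, against 40.3, 38.2 and 74.2 CPM in GST 1, 2 and 3. Its low fold change (-0.40 ± 0.27, edgeR adjusted p = 0.424) came with GST 3 far above the other GST libraries, and it was -0.05 ± 0.17 without GST 3 and -0.05 ± 0.16 with offsets for transcript length and GC content. SNRNP35 had 12, 8.35 and 14.4 CPM with GST-Ferry, against 12.1, 18.6 and 12.2 CPM with GST, where GST 2 was highest (log2 fold change -0.31 ± 0.29, and -0.09 ± 0.32 without GST 2). SNRNP25 had a log2 fold change of 0.21 ± 0.23. None of the 3 passed the test, with or without GST 3 and GST-Ferry 1, and all 3 pairs of groups overlapped.

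LSm ring mRNAs split into those above 0 and those below. LSM4 had 143, 208 and 216 CPM in GST-Ferry 1, 2 and 3, against 110, 118 and 122 CPM in GST 1, 2 and 3. The LSM4 groups did not overlap, and GST-Ferry 1 lay much nearer to GST than the other 2 did (log2 fold change 0.69 ± 0.21, edgeR adjusted p = 0.113). LSM7 had 45.1, 78.4 and 85.2 CPM with GST-Ferry, against 38.9, 58.8 and 35.8 CPM with GST, and GST 2 exceeded GST-Ferry 1 (log2 fold change 0.63 ± 0.27, edgeR adjusted p = 0.233). LSM2 had 0.47 ± 0.24 and LSM3 0.06 ± 0.20, while LSM6, LSM5 and LSM8 had -0.04 ± 0.22, -0.23 ± 0.21 and -0.24 ± 0.21. LSM1 and LSM8, which set the cytoplasmic ring apart from the nuclear one, had log2 fold changes of -0.01 ± 0.22 and -0.24 ± 0.21, and neither passed the test. LSM2, LSM4 and LSM7 were called higher without GST 3 and GST-Ferry 1 together, as were 11.5% of all genes tested.

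In the U7 snRNP, which processes the ends of histone mRNAs, LSM10 and LSM11 replace Sm proteins D1 and D2. LSM11 had 51.2, 70.4 and 67.8 CPM in GST-Ferry 1, 2 and 3, against 46.6, 48.6 and 106 CPM in GST 1, 2 and 3. GST 3 alone lay above the GST-Ferry values, and the sign changed without it. The log2 fold change was -0.09 ± 0.30 with all libraries and 0.37 ± 0.18 without GST 3, and neither passed the test. Without GST 3 and GST-Ferry 1 together it was 0.54 ± 0.16 and LSM11 was called higher (edgeR adjusted p = 0.0267). In that setting 11.5% of all genes tested were called higher. LSM10 had a log2 fold change of 0.14 ± 0.21.

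**Figure D3:**
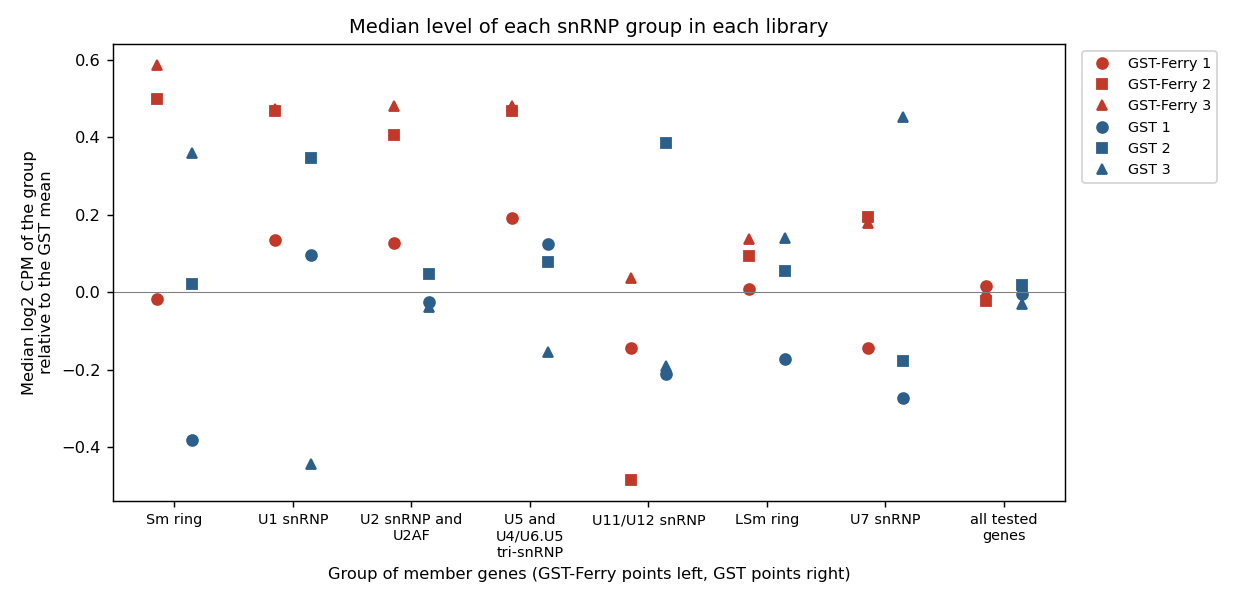
For each group of members, and for all tested genes, the median log2 CPM of the group relative to its GST mean (y axis) is plotted in each library, GST-Ferry left and GST right. The Sm ring reaches 0.59 in GST-Ferry 3 but also 0.36 in GST 3, the U2 and tri-snRNP groups have all GST-Ferry libraries above all GST libraries, and all tested genes stay near 0.

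By group, the median log2 CPM of the U5 and tri-snRNP mRNAs, relative to the GST mean, was 0.19, 0.47 and 0.48 in GST-Ferry 1, 2 and 3 and 0.12, 0.08 and -0.16 in GST 1, 2 and 3. For the U2 and U2AF mRNAs it was 0.13, 0.41 and 0.48 with GST-Ferry and -0.03, 0.05 and -0.04 with GST. Sm ring mRNAs had -0.02, 0.50 and 0.59 with GST-Ferry and -0.38, 0.02 and 0.36 with GST, so these groups overlapped. In GST-Ferry 1 the median over all members was 0.05, below the 0.09 of GST 3, and it was 0.41 and 0.44 in GST-Ferry 2 and 3.

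GC content moved with these differences. Over the 43 tested members the log2 fold change had a Pearson r of 0.31 and a Spearman rho of 0.33 with the GC content of the annotated transcript, against 0.49 and 0.53 over 15437 tested genes with an annotated transcript. The difference of GST 3 from the mean of GST 1 and GST 2 had a Pearson r of -0.66 with GC content over the members and -0.67 over all these genes. These are descriptions over genes that share libraries, and genes are not independent replicates. The members at the low end of that difference were SNRNP70 (-0.97, GC content 63.9%), PRPF31 (-0.96, 58.5%) and SF3A2 (-0.89, 66.6%), and those at the high end were LSM11 (1.15, 44.3%), SNRPG (1.08, 40.2%) and SNRPD3 (1.02, 51.4%). SF3B5 had -0.06 at 56.6%, near no difference. The part of GC content in the differences between baits was not tested beyond the offsets given next. The offsets were fitted for each library on the same counts, bait difference included, and then taken as known. The SE with offsets therefore leave out the error of that fit. With offsets for transcript length and GC content, 5 members were called higher (SNRPF, SNRPC, SNRPB2, SF3B5 and SF3B6) and 1.68% of all genes. In that fit the members' median log2 fold change was 0.18, and SF3B5 had 0.82 ± 0.15 (edgeR adjusted p = 0.0256). SNRPB, with a GC content of 57.8%, had 0.76 ± 0.27 there and was not called (edgeR adjusted p = 0.150). With the same offsets SF3A2 had -0.64 ± 0.16 (edgeR adjusted p = 0.0524), SNRNP70 had -0.60 ± 0.17 (edgeR adjusted p = 0.0857) and LSM4 had 0.36 ± 0.21 (edgeR adjusted p = 0.366), and none of these was called.

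**Figure D4:**
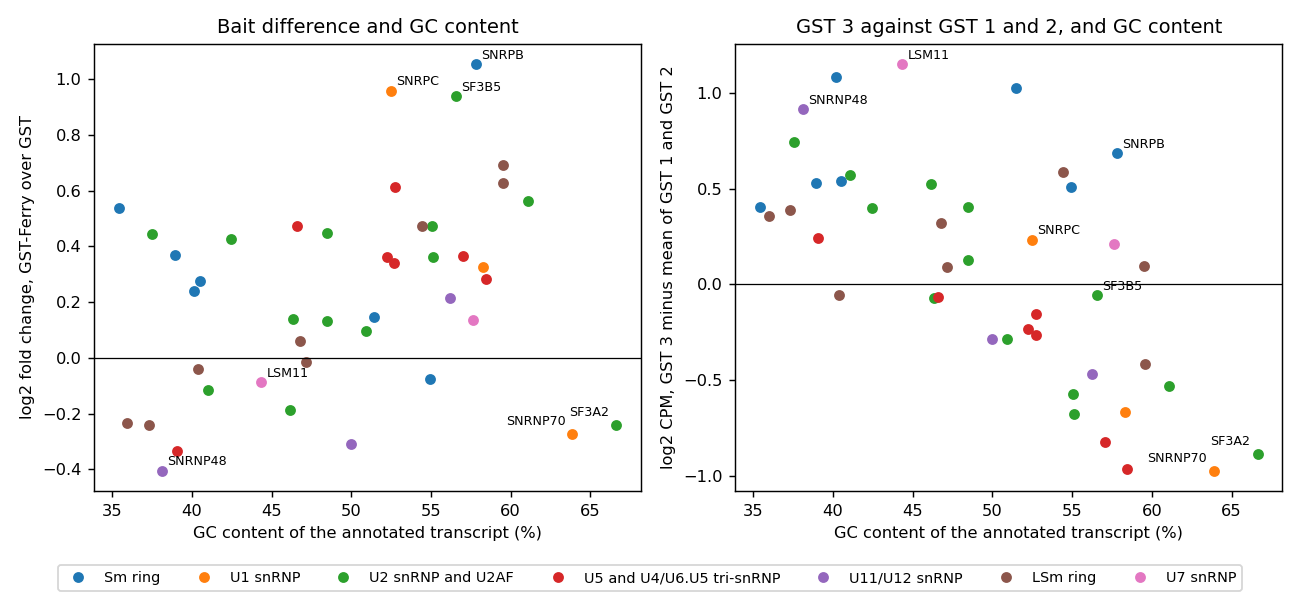
GC content of the annotated transcript (x axis, percent) is plotted for the 43 tested members against the log2 fold change of GST-Ferry over GST (left) and against the log2 CPM of GST 3 minus the mean of GST 1 and GST 2 (right). The right panel slopes down (Pearson r -0.66), with SNRNP70 and PRPF31 lowest, and SF3B5, SNRPB and SNRPC stand highest in the left panel.

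Transcript length showed a weaker relation, with a Pearson r of -0.21 and a Spearman rho of -0.21 between the log2 fold change and log2 length over the 43 members. For the 9 members of at most 1000 bases the median log2 fold change was 0.43, with 8 of 9 above 0, against -0.10 over the 1429 tested genes of that length. In the largest class of members, 15 over 1000 and at most 2000 bases long, the median was 0.14 with 8 above 0, against 0.10 over 2824 genes. The 10 members over 2000 and at most 4000 bases had a median of 0.32, against 0.03 over 5630 genes, and the 9 longer ones had 0.28, against -0.11 over 5554 genes. Small snRNP protein genes have many processed copies in the genome, and 69 named pseudogenes of 15 members were in the table. Their counts came to 0.089% of the members' counts in all, to 4.45% for SNRPG and to 3.38% for SNRPE. Annotated spans of 25 members overlapped that of another gene, 4 of them with a coding gene on the same strand (SNRPB, SNRPD3, SNRPN and SNRNP27), and reads in such overlaps are uncertain.

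Around the members, the proteins that build, move and surround snRNPs gave few calls. Of 99 tested genes in 5 lists, 1 was called higher and 0 lower, and the median log2 fold change was 0.13. The call was WDR77, the partner of the methyltransferase PRMT5 that modifies Sm proteins before ring assembly, 1 of 19 genes of snRNP assembly and transport. WDR77 had 90.1, 138 and 117 CPM in GST-Ferry 1, 2 and 3, against 51.9, 61.3 and 48.3 CPM in GST 1, 2 and 3. The groups did not overlap (log2 fold change 1.09 ± 0.21, edgeR adjusted p = 0.0477). The median of its list was 0.21. With edgeR, 0 genes of the 5 lists were called higher without GST-Ferry 2, GST-Ferry 3, GST 1 or GST 2. Without GST 3 there were 6 called higher and 7 lower, against 4.45% and 3.54% of all genes tested.

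Among 51 other spliceosome proteins, 0 were called, 30 had a log2 fold change above 0 and the median was 0.14. At an unadjusted p under 0.05, 8 of them were higher and 7 lower, against 11.3% and 8.05% of all tested genes. The highest mean CPM over both baits was that of LUC7L3, a LUC7-like factor linked to U1, without correction for transcript length. Per kilobase of annotated transcript it had 40.0 CPM with GST-Ferry and 72.0 with GST, below DHX15 at 119 and 134. By library, LUC7L3 had 323, 256 and 267 CPM in GST-Ferry 1, 2 and 3, against 468, 572 and 480 CPM in GST 1, 2 and 3. All LUC7L3 values with GST-Ferry lay below all with GST, and the difference did not pass the test (log2 fold change -0.84 ± 0.20, edgeR adjusted p = 0.0651). The 9 minor spliceosome partners had a median of -0.29, with 0 called. ZCRB1, with the highest mean CPM of these but not the highest per kilobase, was at -0.50 ± 0.19. For 11 decapping partners of the cytoplasmic LSm ring the median was -0.09 and 0 were called (DDX6 at -0.10 ± 0.25), and histone pre-mRNA processing factors had a median of 0.21 with 0 of 9 called (SYMPK at 0.21 ± 0.23). At an unadjusted p under 0.05, 1 minor spliceosome partner was higher and 3 were lower, and 1 decapping partner and 1 histone factor were lower. The shares of all tested genes were again 11.3% higher and 8.05% lower. DESeq2 called 2 genes of the 5 lists higher and 5 lower, against 3.43% and 1.14% of all tested genes.

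Among the snRNAs, the RNA partners of these proteins, RNU4-2 was high in GST 3. Of 25 spliceosomal snRNA genes, 7 passed the filter, all with a log2 fold change below 0, and 0 were called by edgeR. Their median log2 fold change was -2.29, with a range of -3.08 to -1.02. The value of -3.08 was also the lowest among all tested genes. At an unadjusted p under 0.05, 4 were lower and 0 higher, against 8.05% and 11.3% of all tested genes. RNU4-2 had 19.9, 39.4 and 60.0 CPM in GST-Ferry 1, 2 and 3, against 9.82, 36.7 and 415 CPM in GST 1, 2 and 3, so GST 3 was by far the highest library and the groups overlapped.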

How the data were processed

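RNA was sequenced from 3 GST-Ferry and 3 GST pulldowns. The authors deposited 1 table of raw read counts per Ensembl gene. The build GRCh38.p13 and the tools STAR 2.5.2b and bcl2fastq 2.19.1 are named, per the submitters' processing notes. Not given in the sources used here are the counting program, its annotation and its strand setting. Per the file headers, columns are named control or sample with a number. Control was read as GST and sample as GST-Ferry, an assumption from the words alone. Symbols came from a table of gene names and GENCODE 29, for 58575 of 60676 IDs, and so did transcript lengths and sequences (the longest principal or basic transcript).

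The filter was filterByExpr of edgeR, with a minimum count of 10 and a minimum total of 15. The 15546 genes left were scaled with TMM factors and tested two-sided with edgeR 4.0.16 (R 4.3.3) without covariates. CPM are counts divided by the tested genes' total times the TMM factor, times 1000000. Coding sequences were aligned with Biopython 1.88 and figures drawn with matplotlib 3.10.9. The members and lists were chosen with earlier results of these data known. The members given library by library were those called, the 5 highest and 5 lowest, and the one that failed the filter. The member with the highest mean CPM of each role was also given, without correction for length. Further members are named with their fold changes, and values by library of SF3B1, SNRPA, SNRNP200 and EFTUD2 were chosen after they were seen, as were those of U2AF1. Each list gave its called genes or the gene with the highest mean CPM. Whether the replicates were separate cultures is not in the labels. The p-values therefore reflect the spread between these samples alone, and that may be technical. No library was a duplicate of another of its bait, with a chi-square of 4.43 to 50.3 per degree of freedom. The floor of 3 counts covers counting error only. On simulated counts for 15546 genes changes of 1.5-fold were recovered for 4 of 64 genes, of 2-fold for 31 of 69 and of 3-fold for 48 of 67, and 13 of 96 calls were false. Alternatives were other scalings, no filter, DESeq2 1.42.0, limma-voom 3.58.1, a replicate block, a threshold of 0.01, removal of the 5 bait genes, thinning, length and GC offsets, and libraries left out.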

Additional observations from a re-analysis of the deposited data

How the results depend on the processing

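Of the 43 tested members, 29 kept the sign of their fold change in all 17 alternatives, and the members' median log2 fold change stayed between 0.13 and 0.41. The threshold of 0.01 is among the 17 and uses the same fit, so its fold changes could not differ. Counts are given as members higher, all genes higher, all genes lower, then genes of the 5 other splicing lists higher and lower; with all libraries and the settings of the report they were 1, 92, 5, 1 and 0. No alternative called a member lower. RLE size factors gave 0, 11, 0, 0 and 0, library sizes alone 0, 7, 0, 0 and 0, limma-voom 0, 14, 0, 0 and 0, and a threshold of 0.01 gave 0 throughout. No filter gave 3, 421, 323, 2 and 5, DESeq2 4, 534, 177, 2 and 5, length and GC offsets 5, 260, 43, 3 and 2, and thinning to the smallest library 0, 98, 15, 1 and 1. Without GST 3 and GST-Ferry 1 together the counts were 18, 1754, 992, 20 and 8. Leaving out 1 library gave 0 to 7 members, 0 to 701 genes higher and 0 to 558 lower, and 0 to 6 and 0 to 7 genes of the other lists. The 7 members, 701 and 558 genes came without GST 3, and 0 genes were called without GST-Ferry 2. The cause of these changes was not tested.

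The replicate block gave 3 members (SNRPB, SNRPC and SF3B5), 167 genes higher and 28 lower. Same-numbered libraries correlated at 0.25, 0.08 and -0.13 in their deviations from the group means, and only number 1 correlated best with its own number, so the numbers were not taken as pairs.

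With 1 library left out, the log2 fold change of LSM11 ran from -0.31 to 0.37 and that of SNRPD2 from -0.34 to 0.087. LSM11 turned positive with limma-voom (0.0045), the replicate block (0.014), length and GC offsets (0.10), without GST-Ferry 1 (0.055), without GST 3 (0.37) and without GST 3 and GST-Ferry 1 together (0.54). SNRPD2 did so without GST-Ferry 1 (0.087), GST 2 (0.029), GST 3 (0.065) and without GST 3 and GST-Ferry 1 together (0.24). Counts were lowest for U2AF1 and SNRNP35 among the tested members, with as few as 2 and 21 counts in a library. The split of reads between U2AF1 and U2AF1L5 is uncertain, so the low U2AF1 counts cannot be put down to depth alone.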
